A study of Mus musculus with 40 samples.

Results

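Small nucleolar RNA (snoRNA) genes were followed in macrophages of a pair of inbred mouse strains, before and after a bacterial lipid stimulus. The expression table holds 105 genes with symbols of the form Snord or Snora followed by a digit, out of 22865 genes with a symbol, and 48 of these were kept. A gene was kept when it reached 10 or more tags per 10 M tags (M, mega) in at least 2 of 4 GRO-Seq libraries, a tag being a read counted in the annotated gene. The 48 comprised 30 Snord genes, named for box C/D, and 18 Snora genes, named for box H/ACA. Of the other 57 genes, 7 had no GRO-Seq tag in any library.

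SnoRNAs are short nuclear RNAs that pair with ribosomal RNA and guide its chemical modification in the nucleolus. Box C/D snoRNAs guide methylation of the ribose and box H/ACA snoRNAs guide the change of uridine to pseudouridine. In mammals most are not transcribed on their own but are cut from introns of a host gene, which often encodes a ribosomal protein or translation factor, or is a noncoding RNA whose spliced product is short-lived.

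The cells were thioglycollate-elicited peritoneal macrophages, collected 4 days after injection and kept as adherent cells after overnight culture, from BALBc/J and C57BL6/J mice. They received 100 ng/ml Kdo2-lipid A (KLA), the Toll-like receptor 4 agonist of lipopolysaccharide, or fresh medium alone (untreated). GRO-Seq, which labels RNA that is being extended in isolated nuclei, was done after 1 hr of KLA and without treatment. RNA-Seq of poly(A)-selected RNA was done after 1 and 4 hr of KLA and without treatment, and 20 ChIP-Seq lists cover the H3K4me2 and H3K27Ac marks and the factors PU.1, C/EBPa and p65. Each strain, treatment and assay has 1 library (p65 has 2 replicates per strain, after KLA). Of 40 samples in the series 30 are used here. Because nothing in the labels ties libraries to separate mice, the p-values reflect the spread among these libraries alone, and that spread may be technical.

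GRO-Seq libraries held 39.4 to 48.3 M tags and RNA-Seq libraries 17.0 to 20.3 M. The C57BL6/J KLA library of GRO-Seq stood apart from the other 3: 7.40% of its tags lay in exons, against 8.99 to 9.85% in the others. On the log2 scale the median difference of KLA minus untreated over 10862 genes tested was -0.12 in BALBc/J and -0.56 in C57BL6/J. Both strains responded, since 4 of 5 response genes were called higher in GRO-Seq (Tnf, Il1b, Nfkbia and Cxcl2) and Fbxo32, a ubiquitin ligase subunit, lower. Macrophage markers summed to between 1023 and 1472 tags per 10 M in the GRO-Seq libraries. The sums of mast cell, eosinophil, neutrophil, B cell, and T and NK cell markers lay between 2.16 and 51.4, and 3 erythroid markers were at 0. The mesothelial and fibroblast markers summed to 45.7 and 52.4 tags per 10 M in the BALBc/J KLA and untreated libraries, against 10.6 and 24.6 in C57BL6/J. Their part in the results was not tested. In such bulk samples fewer cells of a type and less RNA per cell cannot be told apart.

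Of the 48 snoRNA genes, 46 lay on the same strand inside a host gene of the table, and Snord89 and Snord104 did not. The 46 shared 36 hosts. Ribosomal protein genes made up 15 hosts with 20 snoRNA genes, hosts with no coding transcript in the table made up 8 with 10 snoRNA genes, and the remaining hosts made up 13 with 16. The remaining hosts include 1500012F01Rik, which the table lists with a coding transcript although the gene (Zfas1) is known as a noncoding RNA. All 35 hosts tested in GRO-Seq had H3K27Ac at the start in every list of that mark. Ribosomal protein genes and many snoRNA hosts are known to begin their RNA with a run of pyrimidines. The windows show 25 bases on each side of the annotated start on the host's strand, from RefSeq on GRCm38.p6, a different build from that of the expression table. They are shown for hosts of the snoRNA genes described most, and capitals mark an unbroken run of at least 7 bases that are C or T and that comes within 5 bases of the start.
Snhg12, host of Snora16a, chr4:132308653-132308702, plus strand: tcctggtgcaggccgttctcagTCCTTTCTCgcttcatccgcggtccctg
Snhg1, host of Snord22, chr19:8723462-8723511, plus strand: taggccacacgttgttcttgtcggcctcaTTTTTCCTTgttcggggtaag
Snhg9, host of Snora78, chr17:24719941-24719990, minus strand: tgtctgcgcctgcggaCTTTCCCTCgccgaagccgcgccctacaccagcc
Rpl13a, host of Snord32a, Snord33, Snord34 and Snord35a, chr7:45128721-45128770, minus strand: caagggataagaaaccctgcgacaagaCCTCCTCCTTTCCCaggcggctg
2410006H16Rik, host of Snord49a, Snord49b and Snord65, chr11:62602852-62602901, plus strand: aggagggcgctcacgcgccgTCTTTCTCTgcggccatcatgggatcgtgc
Rps3, host of Snord15a and Snord15b, chr7:99483685-99483734, minus strand: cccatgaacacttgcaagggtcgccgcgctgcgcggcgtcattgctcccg
Snx5, host of Snord17, chr2:144270548-144270597, minus strand: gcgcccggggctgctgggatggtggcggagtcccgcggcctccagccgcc
Of the 36 hosts, 27 matched a RefSeq start window and 10 of these (37.0%) held such a run, against 15.7% of 27025 RefSeq genes. Only the host's own strand was searched, and the definition of the run was chosen after the sequences were seen, so the shares are a description. Rps3 and Snx5 are shown without a run.

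The snoRNA genes were 57 to 221 nt long, with a median of 92.5 nt, and began 14 to 38758 bp (median 2061 bp) after the host's annotated start, 11 of them within 1000 bp. Their mean GRO-Seq level over the 4 libraries ran from 9.09 to 400 tags per 10 M with a median of 26.1. Levels were uneven: the 5 highest genes held 41.0 to 55.4% of the snoRNA tags of a library. Of the 48 genes, 33 reached 10 tags per 10 M in all 4 libraries, 5 in 3 and 10 in 2. Of the last 10, 5 reached it in both KLA libraries alone and 0 in both untreated libraries alone, so their choice favours a higher level after KLA. Another 3 (Snora36b, Snord12 and Snord65) reached it in the C57BL6/J KLA and untreated BALBc/J libraries alone. Snord45c reached it in the BALBc/J KLA and untreated C57BL6/J libraries alone. The choice of these genes favours opposite directions in the strains. The smallest number of whole tags behind a GRO-Seq value was 17.

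**Figure D1:**
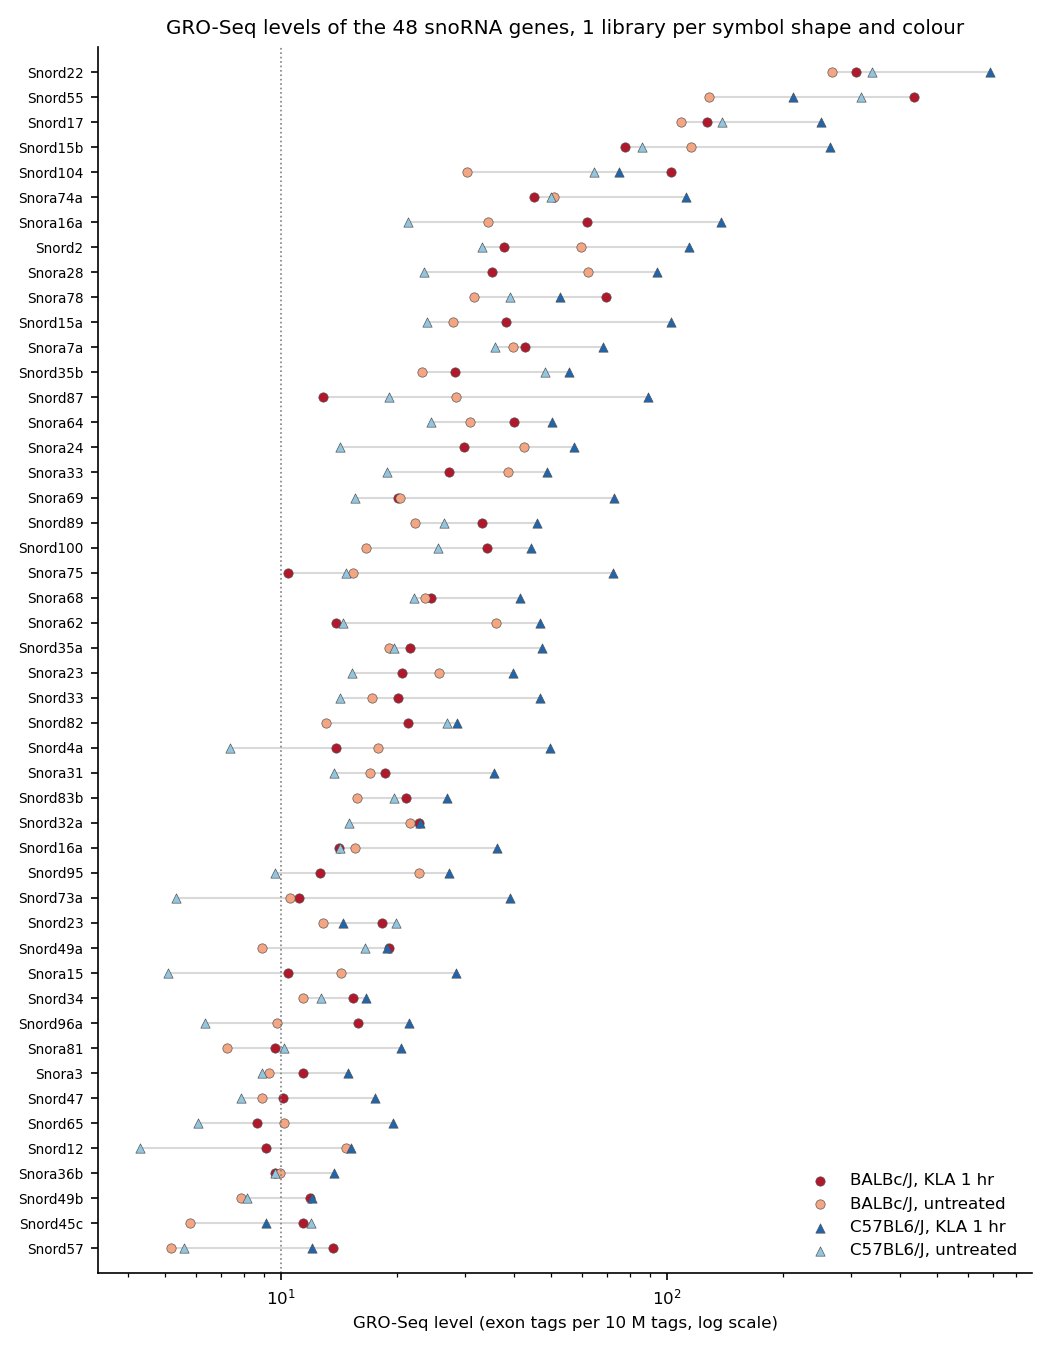
GRO-Seq level of each of the 48 snoRNA genes (tags per 10 M, log axis), 1 point per library, with colour and shape giving strain and treatment and a dotted line at 10 tags per 10 M. The C57BL6/J KLA point is the rightmost for 41 of the 48 genes, and Snord55 and Snord104 are among the exceptions.

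The highest gene was Snord22 (U22), a box C/D RNA needed for processing of small-subunit ribosomal RNA in Xenopus oocytes, at mm9 chr19:8800355-8800481 on the plus strand (coordinates as the expression table gives them) within the noncoding host Snhg1. Snord22 had 308 tags per 10 M in the BALBc/J KLA library against 267 in the untreated one, and 684 in the C57BL6/J KLA library against 339. Snord55, a box C/D RNA, was next. It had 435 tags per 10 M in the BALBc/J KLA library against 129 in the untreated one, and 212 in the C57BL6/J KLA library against 318. The strains thus moved in opposite directions for Snord55. Its counting intervals did not overlap between treatments in either strain (exact Poisson, 95%, counting error only): 415 to 456 with KLA against 119 to 139 untreated in BALBc/J, and 198 to 227 with KLA against 301.0 to 336.5 untreated in C57BL6/J.

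Snord17, inside Snx5 (a sorting nexin of endosomes), had 127 tags per 10 M with KLA against 109 untreated in BALBc/J, and 250 against 139 in C57BL6/J. Snord15b, inside Rps3 (a small-subunit ribosomal protein), had 77.9 with KLA against 115 untreated in BALBc/J, and 263 against 86.1 in C57BL6/J. Snord104, which had no host in the table, had 102 with KLA against 30.2 untreated in BALBc/J and 75.2 against 64.5 in C57BL6/J. Snord17 was higher with KLA in both strains, Snord15b was higher in C57BL6/J alone, and most of the difference of Snord104 lay in BALBc/J. The 5 next genes in level were Snora74a, Snora16a, Snord2, Snora28 and Snora78. Snord2, inside the translation factor gene Eif4a2, had 37.8 with KLA against 59.6 untreated in BALBc/J and 114 against 33.0 in C57BL6/J. Snora28, inside the translation factor gene Eif5, had 35.1 with KLA against 62.3 untreated in BALBc/J and 94.0 against 23.4 in C57BL6/J. Both crossed over: the KLA library was the lower in BALBc/J and the higher in C57BL6/J. Snora74a, inside the noncoding Snhg4, had 45.2 with KLA against 50.9 untreated in BALBc/J and 112 against 50.0 in C57BL6/J. Snora78, inside the noncoding Snhg9, had 69.5 with KLA against 31.7 untreated in BALBc/J and 52.6 against 39.1 in C57BL6/J, higher with KLA in both.

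Summed over the 48 genes, the snoRNA level in GRO-Seq was 2026 tags per 10 M in the BALBc/J KLA library against 1586 in the untreated one, a ratio of 1.28. In C57BL6/J it was 3425 with KLA against 1711 untreated, a ratio of 2.00. The untreated strains were thus close in sum and the C57BL6/J KLA library stood above the other 3. Without Snord22 and Snord55 the sums were 1283 with KLA against 1190 untreated in BALBc/J, and 2528 against 1054 in C57BL6/J. For the summed tags of the 57 genes under the threshold the ratio of KLA to untreated was 1.25 in BALBc/J and 1.73 in C57BL6/J. The host genes summed to 3581 with KLA against 3664 untreated in BALBc/J and 3513 against 3697 in C57BL6/J, slightly lower with KLA in both strains. Much of these sums was Gas5, with 717 with KLA against 736 untreated in BALBc/J and 1239 against 748 in C57BL6/J. The other hosts together thus fell more in C57BL6/J than the sum shows. The exon tags of many ribosomal protein genes are uncertain, because they share near-identical sequence with processed copies elsewhere in the genome.

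By gene, the change after KLA was taken as the log2 difference of tags per 10 M plus a pseudocount of 10, within each strain. In BALBc/J, 30 of 48 snoRNA genes were higher with KLA, against 41.1% of all genes tested, with a median change of 0.10 (range -0.95 to 1.68) against -0.12 over all genes. In C57BL6/J, 45 of 48 were higher, against 18.3% of all genes, with a median of 0.84 (range -0.56 to 2.24) against -0.56. Relative to the all-gene median, the snoRNA median was 0.23 in BALBc/J, with 34 of 48 above it, and 1.41 in C57BL6/J, with 48 of 48 above it. Among the 33 genes at the threshold in every library the medians were 0.12 in BALBc/J, where 21 were higher, and 0.94 in C57BL6/J, where 31 were higher. A change of at least 1 was seen for Snord55 and Snord104 in BALBc/J (4.65% of all genes) and for 16 of 48 in C57BL6/J (3.54% of all genes).

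The strains often differed in direction. A higher level with KLA in both was seen for 27 genes (17.2% of all genes tested). A lower level in BALBc/J with a higher one in C57BL6/J was seen for 18 (1.05%), and the reverse for Snord23, Snord45c and Snord55. For Snora36b, Snord12 and Snord65 among the 18, and for Snord45c, the opposite directions were set by the libraries through which they were kept, so nothing is read from them. In 22 genes both KLA libraries lay above both untreated ones, against 12.4% of all genes. For 5 of them (Snora3, Snord47, Snord49b, Snord57 and Snord96a) this was set by the choice, since they reached the threshold in both KLA libraries alone. The same 5 are among the 27 higher in both strains. The C57BL6/J KLA library was the highest of the 4 for 41 genes, against 3.96% of all genes and 1 of 35 hosts (Gas5). Over the 48 genes, the BALBc/J and C57BL6/J changes had a correlation of -0.58, against 0.60 over 35 hosts and 0.89 over all genes tested. These are descriptions over genes that share the same 4 libraries. The correlation over the 48 includes Snora36b, Snord12, Snord65 and Snord45c, whose choice favours a negative value, so nothing is read from its sign. With 1 library per strain and treatment, the difference between the strains' responses could not be tested, and 36 of the 48 changes were larger in C57BL6/J.

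By class, 8 of 18 H/ACA genes were higher with KLA in BALBc/J (median -0.02) and 18 in C57BL6/J (median 1.00). Of 30 C/D genes, 22 were higher in BALBc/J (median 0.20) and 27 in C57BL6/J (median 0.71). The choice set a higher level with KLA for Snord47, Snord49b, Snord57 and Snord96a among the C/D genes, and for Snora3 among the H/ACA genes. The difference between the classes was not tested. Other short transcripts were read alongside: 29 tested genes of up to 300 nt without a Snord or Snora symbol had median changes of 0.24 in BALBc/J and 0.51 in C57BL6/J. Not all are unrelated to snoRNAs, since they include Scarna6, Scarna13, Rnu73b and Snhg9, the host of Snora78. Those had C57BL6/J changes of 0.51 to 0.59, and the C57BL6/J median was the value of Scarna13. The rest were not summarised apart. Over all genes up to 150 nt long, most of them snoRNA genes, the median change was 0.13 in BALBc/J and 0.64 in C57BL6/J. Over those longer than 4000 nt it was -0.31 in BALBc/J and -0.75 in C57BL6/J. The part of transcript length in the snoRNA result was not tested.

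**Figure D2:**
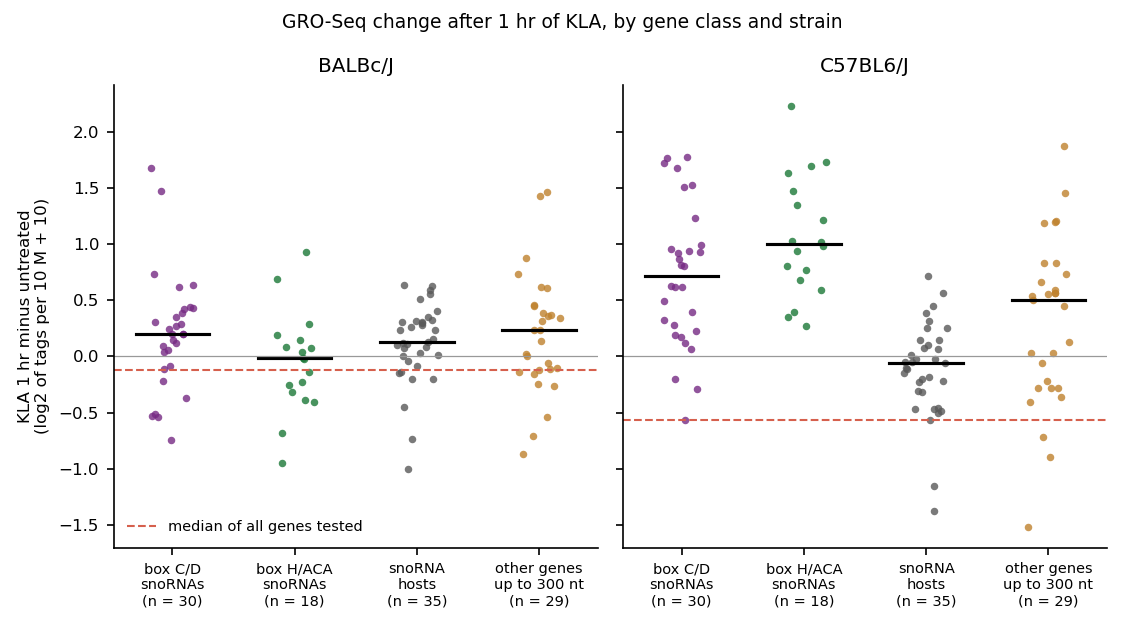
Change after 1 hr of KLA in GRO-Seq (log2 difference, KLA minus untreated) of each gene by class in each strain, with a black bar at the class median and a dashed red line at the median of all genes tested. In BALBc/J the medians are 0.20 for C/D, -0.02 for H/ACA and 0.13 for the hosts, and in C57BL6/J they are 0.71, 1.00 and -0.06.

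The KLA contrast was fitted over both strains with limma, with Benjamini-Hochberg adjustment over all 10862 genes, and calls needed an adjusted p below 0.05 together with a log2 change of 1 or more in size. The fit called 2 snoRNA genes higher and 0 lower (3.82% and 14.2% of all genes). One was Snora16a, an H/ACA RNA at mm9 chr4:131865379-131865515 on the plus strand inside the noncoding Snhg12. It had 61.8 tags per 10 M with KLA against 34.4 untreated in BALBc/J and 138 against 21.3 in C57BL6/J, and the groups did not overlap. Its fitted change was 1.47 ± 0.36 (SE; limma adjusted p = 0.00031, higher in 2 of 2 strains). The other was Snord15a, a C/D RNA at mm9 chr7:106631294-106631442 on the minus strand inside Rps3, with 38.3 against 27.9 tags per 10 M in BALBc/J and 102 against 23.9 in C57BL6/J. Its fitted change was 1.04 ± 0.35 (SE; limma adjusted p = 0.0142, higher in 2 of 2 strains). With 3 libraries the strain term leaves no residual, so a library could be left out of the test only together with that term. The 4 libraries without the strain term still gave both calls. Without that term and without the C57BL6/J KLA library neither gene was called, with changes of 0.95 for Snora16a and 0.43 for Snord15a. The same held without the untreated BALBc/J library (1.72 and 1.12) or the untreated C57BL6/J library (1.22 and 0.96).

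By the adjusted p alone 8 snoRNA genes were higher and 0 lower, against 5.44% and 25.9% of all genes. The other 6 were Snora15, Snora69, Snord4a, Snord57, Snord73a and Snord96a, with fitted changes between 0.55 and 0.86. Snord57 and Snord96a reached the threshold in the 2 KLA libraries alone, which favours a change in this direction, so nothing is read from the count of 8. Snord73a, inside the ribosomal protein gene Rps3a, had 11.1 tags per 10 M with KLA against 10.6 untreated in BALBc/J and 39.2 against 5.33 in C57BL6/J. Snord57, inside Nop56 (a core protein of the C/D particle), had 13.6 with KLA against 5.17 untreated in BALBc/J and 12.02 against 5.59 in C57BL6/J, with similar values in both strains. The fitted changes of all 48 lay above 0 (median 0.49 against -0.34 over all genes), from 0.01 for Snord23 to 1.47. For Snora3, Snord47, Snord49b, Snord57 and Snord96a this direction was set by the choice, since they reached the threshold in the 2 KLA libraries alone. The 2 kept genes nearest the threshold were Snora36b and Snord47. On the deposited scale Snora36b had 9.73 and 13.7 tags per 10 M with KLA in BALBc/J and C57BL6/J, against 10.1 and 9.67 untreated. Snord47 had 10.3 and 17.8 with KLA against 8.96 and 7.92 untreated in the same strains. Just outside, Snord99 had 9.80 and 9.75 with KLA against 5.65 and 9.51 untreated, and Snora34 had 7.93 and 20.5 against 9.02 and 6.55.

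Between the strains, limma called 0 snoRNA genes higher and 0 lower in BALBc/J than in C57BL6/J (0.589% and 0.451% of all genes). An unadjusted p under 0.05 was seen for 5 of 48, against 1107 of all 10862 genes tested. By the adjusted p alone 0 were higher (1.27% of all genes) and 1 was lower (0.543%). It was Snora75, inside the nucleolin gene Ncl. Snora75 had 10.4 tags per 10 M in BALBc/J with KLA against 72.3 in C57BL6/J with KLA, and 15.3 in untreated BALBc/J against 14.7 in untreated C57BL6/J. Its fitted strain difference was -0.99 (limma adjusted p = 0.0445, lower in 1 of 2 treatments). After KLA, 41 of 48 snoRNA genes were lower in BALBc/J, with a median difference (BALBc/J minus C57BL6/J) of -0.66, against 0.42 over all genes. Snora36b, Snora81, Snord12 and Snord65 reached the threshold in the C57BL6/J KLA library and not in the BALBc/J KLA library, so the choice favours this direction for them. For Snord45c it favours the reverse. Without treatment 18 of 48 were lower in BALBc/J and the median difference was 0.08. The fitted strain difference had a median of -0.23 over the snoRNA genes and 0.23 over all genes.

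Hosts were compared with their snoRNAs in the same GRO-Seq libraries, using the exon tags of the host. These are not always apart from the snoRNA: the Snhg8 transcript of 785 nt fills its whole span, so its exon holds Snora24. In Gas5 the counted exons make up 2554 of 3372 bp and may hold Snord47. In BALBc/J the snoRNA change exceeded the host change in 19 of 46 pairs, and the median difference was -0.10. In C57BL6/J it did so in 41 of 46 pairs, by a median of 1.02. Over the fit of both strains it did so in 42 of 45 pairs whose host was tested, by a median of 0.47. That median was -0.09 without either C57BL6/J library and 1.01 without either BALBc/J library. The hosts were not chosen by level, but the snoRNA genes were. For Snora3, Snord47, Snord49b, Snord57 and Snord96a this choice favours a snoRNA change above that of the host. For Snora36b, Snord12 and Snord65 it does so in C57BL6/J and favours the reverse in BALBc/J. For Snord45c the strains are exchanged. Across the pairs, the snoRNA and host changes had a correlation of -0.01 in BALBc/J and 0.05 in C57BL6/J. This is a description, since pairs share libraries and some share a host. By kind of host, the C57BL6/J median of the snoRNA genes was 0.93 for 10 in noncoding hosts, 0.87 for 20 in ribosomal protein hosts and 0.87 for 16 in the remaining hosts, as classed by the table. The hosts themselves had C57BL6/J medians of 0.19, -0.004 and -0.20 in these classes.

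**Figure D3:**
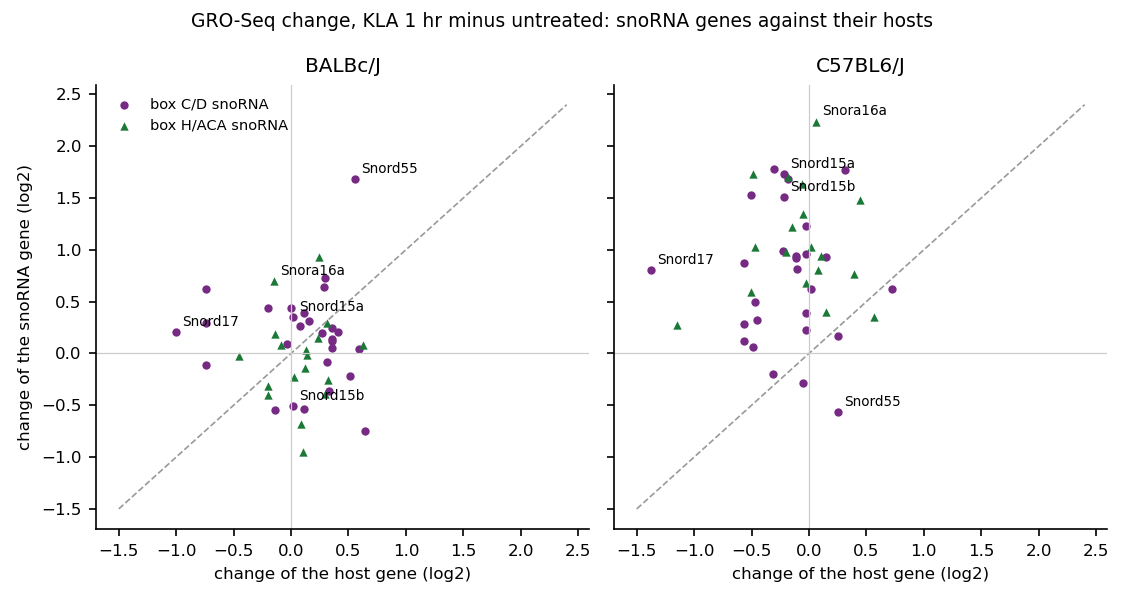
Change after 1 hr of KLA in GRO-Seq (log2 difference, KLA minus untreated) of each snoRNA gene (y axis) against that of its host (x axis), 46 pairs per strain, with a dashed line where both are equal. In BALBc/J 19 points lie above the line and in C57BL6/J 41 do.

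The largest fitted difference between a snoRNA and its host was that of Snord17, 1.69. Its host Snx5 was the 1 host of 35 called lower in GRO-Seq after KLA, against 14.2% of all genes, and 0 were called higher, against 3.82%. Snx5 had 123 tags per 10 M with KLA against 255 untreated in BALBc/J and 98.3 against 271 in C57BL6/J, a fitted change of -1.19 ± 0.33 (SE; limma adjusted p = 0.0016, lower in 2 of 2 strains). With the strain term dropped, Snx5 was called in all 4 libraries and was not called when either untreated library was also left out (-1.23 and -1.15). In both strains Snord17 was higher with KLA while Snx5 was lower, but Snord17 did not pass the test (fitted change 0.50 ± 0.33). Snora16a exceeded its host by 1.51. Snhg12 had 46.0 tags per 10 M with KLA against 52.0 untreated in BALBc/J and 48.8 against 46.2 in C57BL6/J, so the 4 host values lay close together. Snord15a exceeded Rps3 by 1.14, and Rps3 had 96.9 with KLA against 95.8 untreated in BALBc/J and 72.3 against 85.6 in C57BL6/J. Snora75 and Snord65 exceeded their hosts by 1.06 and 1.03. In 3 pairs the snoRNA change was the smaller, by 0.14 or less, among them Snora7a in Rpl32 and Snord23 in Gltscr2, a ribosome assembly factor.

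SnoRNA genes of the same host varied in their changes. Rpl13a, a large-subunit ribosomal protein gene, holds 4 box C/D genes, of which Snord32a, Snord33 and Snord35a have been linked to cell death under lipid stress in rodent cells. Snord33 had 20.0 tags per 10 M with KLA against 17.2 untreated in BALBc/J and 46.9 against 14.2 in C57BL6/J. Snord35a had 21.5 against 19.0 in BALBc/J and 47.3 against 19.6 in C57BL6/J. These 2 differed mainly in C57BL6/J. Snord32a had 22.7 against 21.5 in BALBc/J and 22.8 against 15.0 in C57BL6/J, and Snord34 had 15.3 against 11.4 and 16.6 against 12.7 in the same strains. The 4 changes spanned 0.19 on the log2 scale in BALBc/J and 1.00 in C57BL6/J. Rpl13a itself had 35.9 with KLA against 25.9 untreated in BALBc/J and 28.8 against 29.5 in C57BL6/J. In 2410006H16Rik, a noncoding host, Snord65 had 8.65 with KLA against 10.1 untreated in BALBc/J and 19.5 against 6.10 in C57BL6/J. Its neighbour Snord49a had 19.0 against 8.90 in BALBc/J and 18.7 against 16.5 in C57BL6/J, the opposite balance between strains. Snord49b had 11.9 against 7.87 in BALBc/J and 12.02 against 8.13 in C57BL6/J, almost alike. The widest span within a host in C57BL6/J, 1.67, was between Snora75 and Snord82 of Ncl.

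**Figure D4:**
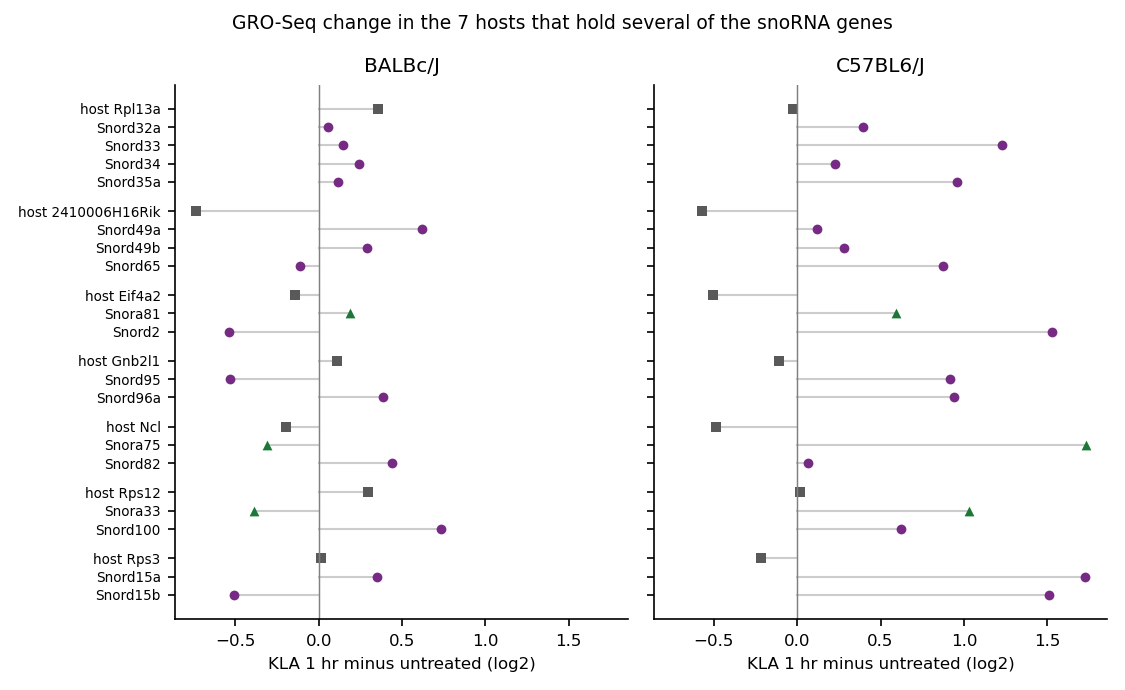
Change after 1 hr of KLA in GRO-Seq (log2 difference, KLA minus untreated) in each strain for the 7 hosts with at least 2 snoRNA genes, points for snoRNA genes and squares for the hosts. In C57BL6/J the spans within a host run from 0.02 in Gnb2l1 to 1.67 in Ncl.

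Per length, snoRNA genes stood above their hosts in GRO-Seq. The median ratio of snoRNA to host tags per kb was 4.52 with KLA against 4.61 untreated in BALBc/J and 11.6 against 3.69 in C57BL6/J. It was above 1 in 41 to 45 of 46 pairs in the 4 libraries. The snoRNA genes were kept at 10 or more tags per 10 M whatever their length, and the hosts were not chosen by level. For such short genes this choice favours a high level per kb, so nothing is read from the ratios above 1. In C57BL6/J Snora16a had 1013 tags per 10 M per kb with KLA against 157 untreated, and its host Snhg12 had 80.5 against 76.3. In RNA-Seq the median ratio was 0.67 with KLA at 1 hr against 0.47 untreated in BALBc/J and 0.50 against 0.38 in C57BL6/J, so there most snoRNA genes lay below their host.

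The assays were then compared gene by gene. In untreated cells the log2 ratio of GRO-Seq over RNA-Seq (tags per 10 M plus 1) was above 0 for 44 of 48 snoRNA genes in BALBc/J and 45 of 48 in C57BL6/J, against 17.2% and 17.4% of all genes tested. The median ratio was 1.76 in BALBc/J and 1.87 in C57BL6/J, against -0.98 over the hosts in each strain and -2.12 and -1.99 over all genes. The choice of genes by GRO-Seq level favours a high ratio, but over all 105 Snord and Snora genes it was still 1.20 and 1.34. H/ACA genes had the higher ratios, with medians of 2.64 in BALBc/J and 2.33 in C57BL6/J, against 1.14 and 1.50 for C/D genes. Snord49a and Snord96a were the 2 genes higher in RNA-Seq in both untreated strains. Poly(A) selection and the isolated nuclei of GRO-Seq sample different RNA, and their part was not tested.

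**Figure D5:**
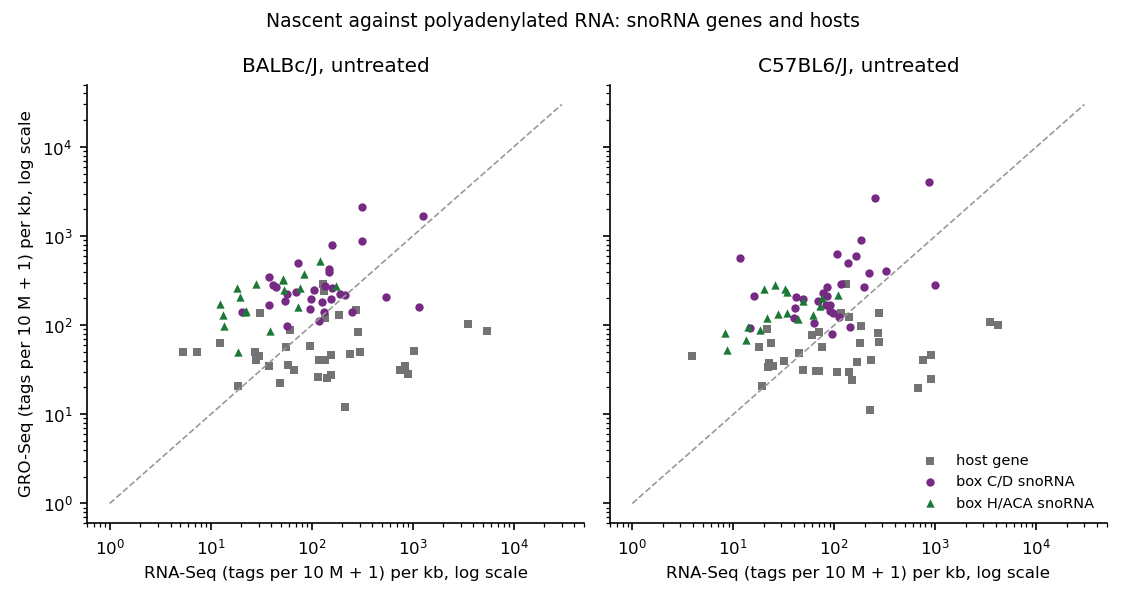
Level in untreated GRO-Seq (y axis) against untreated RNA-Seq (x axis), both as tags per 10 M plus 1, per kb, on log axes, for snoRNA genes and their hosts in each strain. Most snoRNA genes lie high and to the left, with 44 of 48 above RNA-Seq in BALBc/J and 45 of 48 in C57BL6/J, and most hosts to the right.

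In RNA-Seq the snoRNA genes summed to 636 tags per 10 M at 1 hr and 466 at 4 hr of KLA, against 563 untreated, in BALBc/J. In C57BL6/J they summed to 468 at 1 hr and 461 at 4 hr, against 433 untreated. The 3 C57BL6/J sums thus lay close together. Snord55 led with 133 at 1 hr and 97.2 at 4 hr against 97.8 untreated in BALBc/J, and 123 and 81.9 against 67.1 in C57BL6/J. Snord49a had 84.8 at 1 hr and 50.0 at 4 hr against 70.2 untreated in BALBc/J, and 37.2 and 57.7 against 61.2 in C57BL6/J. Snord22, Snord82 and Snord17 followed, with 11.7 to 47.5 in the 6 libraries. Only 19 of the 48 genes were high enough to be tested in RNA-Seq. In limma 0 of 19 were called higher or lower at 1 hr (1.72% and 1.41% of all genes), at 4 hr (7.73% and 19.9%) or between strains (2.42% and 1.16%). In each contrast 2 of the 19 had an unadjusted p under 0.05. Of all 11650 genes tested, 2633 did at 1 hr, 7108 at 4 hr and 2551 between strains. By the adjusted p alone 2 were higher and 0 lower at 4 hr, against 11.4% and 43.3% of all genes. Snord12 had 16.1 tags per 10 M at 4 hr against 3.64 untreated in BALBc/J and 21.2 against 5.30 in C57BL6/J, a fitted change of 0.98 ± 0.22 (SE; limma adjusted p = 0.0061, higher in 2 of 2 strains). Snord49b had 11.5 against 7.28 in BALBc/J and 17.8 against 4.71 in C57BL6/J, a fitted change of 0.62 ± 0.22 (SE; limma adjusted p = 0.045, higher in 2 of 2 strains). In RNA-Seq Snord12 reached 10 tags per 10 M only in the 4 hr libraries, and Snord49b only in libraries with KLA. Their entry into the test thus favours a change in this direction, so nothing is read from these 2 changes.

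Among the hosts in RNA-Seq, limma called 0 of 33 tested at 1 hr (1.72% of all genes higher, 1.41% lower). An unadjusted p under 0.05 was seen for 2 of the 33, against 2633 of all 11650 genes tested. At 4 hr it called 1 higher and 3 lower, against 7.73% and 19.9% of all genes. The higher was 1500012F01Rik (Zfas1), host of Snord12, with 396 tags per 10 M at 4 hr against 137 untreated in BALBc/J and 380 against 103 in C57BL6/J, a fitted change of 1.62 ± 0.22 (SE; limma adjusted p = 0.00055). The lower were Rab3gap2, a subunit of a regulator of the Rab3 GTPases (-1.94 ± 0.33), 2410006H16Rik (-1.59 ± 0.24) and Snx5 (-1.58 ± 0.16). In 2410006H16Rik the level was 23.6 at 4 hr against 124 untreated in BALBc/J and 31.6 against 84.2 in C57BL6/J. Between strains 0 hosts were called higher (2.42% of all genes) and 1 lower (1.16%), the noncoding Snhg6, which was lower in BALBc/J (-1.02 ± 0.17, SE; limma adjusted p = 0.0096). It had 58.9, 40.3 and 54.6 tags per 10 M in BALBc/J at 1 hr, 4 hr and untreated, against 111, 116 and 111 in C57BL6/J. Snhg6 was not called without either 4 hr library (-0.86 each). Its snoRNA gene Snord87 had in GRO-Seq 12.9 with KLA against 28.4 untreated in BALBc/J and 89.2 against 19.1 in C57BL6/J.

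Genes for the partners of snoRNAs were also read in GRO-Seq after KLA, against the same 3.82% and 14.2% of all genes. Of box C/D particle proteins 0 of 3 tested were called and the median change was 0.19. Nop58, a core protein of that particle, had 72.7 tags per 10 M with KLA against 39.7 untreated in BALBc/J and 91.1 against 57.4 in C57BL6/J. Of 4 box H/ACA particle proteins 0 were called (median 0.35). Dkc1, the pseudouridine synthase, had 43.0 against 71.8 in BALBc/J and 31.0 against 41.4 in C57BL6/J. Of 11 assembly factors 0 were called (median -0.17). Of 13 genes of RNA polymerase I and its factors 1 fell, Polr1a, the largest subunit of the enzyme that makes the ribosomal RNA precursor (-1.16 ± 0.35; median -0.16). It had 31.2 with KLA against 72.7 untreated in BALBc/J and 43.3 against 121 in C57BL6/J, and it also fell in RNA-Seq at 4 hr (-1.12). Of 8 genes of nonsense-mediated decay, the pathway that degrades many noncoding snoRNA hosts, 1 fell, Upf2 (-1.14 ± 0.35; median -0.44), and in RNA-Seq at 4 hr Smg6 fell (-1.42 ± 0.24). Of 11 long noncoding snoRNA hosts 0 were called (median 0.07).

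Other short noncoding RNAs, listed as made from their own promoters, were compared as a check. Of 7 tested 0 were called after KLA (median 0.37). The list includes Rnu73b, which shares the number of the snoRNA Snord73a and may not have a promoter of its own, so the median is not free of snoRNAs. Rmrp, the RNA of a nuclease that cuts the ribosomal RNA precursor, had 641 tags per 10 M with KLA against 542 untreated in BALBc/J and 1061 against 590 in C57BL6/J. The C57BL6/J KLA library was thus the highest for Rmrp, but it was the lowest for Rnu11 and Rnu12. Rnu11 had 32.4 against 31.7 in BALBc/J and 20.4 against 26.9 in C57BL6/J. Rnu12 had 21.3 against 23.8 in BALBc/J and 9.61 against 22.4 in C57BL6/J. Rpph1, the RNA of ribonuclease P, had 225 against 125 in BALBc/J and 397 against 370 in C57BL6/J, and it was lower in BALBc/J than in C57BL6/J (-1.14 on the log2 scale). Of 9 small Cajal body RNAs, which guide modification of spliceosomal RNA, 2 were high enough to be tested and 0 were called. Scarna6 had 32.1 with KLA against 35.2 untreated in BALBc/J and 66.6 against 41.9 in C57BL6/J, and Scarna13 had 15.8 against 18.8 and 31.2 against 19.1 in the same strains.

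At the host starts, a peak or region within 500 bp was counted when it was present in every list of a factor or mark. H3K27Ac, a mark of active promoters and enhancers, was there in 35 of 35 hosts tested in GRO-Seq, against 78.4% of all genes tested, and H3K4me2 in 32, against 89.9%. PU.1, the lineage factor of macrophages, was there in 29 hosts (56.6% of all genes) and C/EBPa in 14 (30.2%). The NF-kB subunit p65 was there after KLA in both replicates of both strains in 19 hosts, against 30.7%. Among genes within the hosts' range of GRO-Seq level the shares were 83.7% for H3K27Ac, 91.7% for H3K4me2, 59.5% for PU.1, 31.5% for C/EBPa and 32.5% for p65. A listed peak is the authors' own call, and strengths were not compared between lists.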

How the data were processed

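Reads were aligned to mm9 with Bowtie 0.12.7 and processed with HOMER, per the submitters' processing notes. The authors deposited log2 values, the logarithm of 1 plus exon tags per 10 M, per the file headers, uncorrected for length. On the linear scale each held whole tags plus a random part of up to 1 tag. The threshold for keeping a gene used the deposited values, and the levels and fits used the whole tags. Strand use in counting and the handling of reads with several matches are not given in the sources used here. Tags of a snoRNA and of an unspliced host cannot be told apart. Peak signal was deposited by the authors per 10 M tags, and peaks were called per sample, per the file headers. Genes entered a fit when 2 or more libraries of the assay reached 10 tags per 10 M (10862 genes in GRO-Seq, 11650 in RNA-Seq). limma 3.58.1 in R 4.3.3 was fitted per assay on log2(tags per 10 M + 10) with treatment and strain as terms and Benjamini-Hochberg adjustment. The fold is understated for low genes. Residual degrees of freedom were 1 in GRO-Seq, and the spread there was in effect pooled over all genes. The fit was tested on simulated data. A host was a same-strand gene of the table whose span holds the snoRNA. Named were the 10 highest genes, called genes, genes of hosts with at least 3, the 5 farthest from the host on each side (3 were below it), the 5 highest in RNA-Seq, the 2 nearest the threshold on each side, called hosts, and called or high genes of the lists. The others named were chosen after their values were seen. The kept genes, lists and tests were chosen with earlier results of these data known. Some genes that the naming rule selects are not reported here. Inputs, CB6F1/J F1 hybrids and NOD/ShiLtJ samples were not analysed here. pandas 2.3.3, numpy 2.4.6, scipy 1.17.1 and matplotlib 3.10.9 were used.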

Additional observations from a re-analysis of the deposited data

Results flagged for a closer look

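Among the snoRNA genes that the naming rule selects, 9 were ones in which the 2 strains moved in opposite directions after KLA in GRO-Seq. With 1 library per strain and treatment these differences were not tested. Snora36b and Snord65 were kept through the C57BL6/J KLA and untreated BALBc/J libraries alone, which set their directions. The log2 change was -0.68 in BALBc/J and 1.64 in C57BL6/J for Snora28, -0.021 and 0.27 for Snora36b, and -0.14 and 1.02 for Snora74a. In the same order of strains it was -0.31 and 1.74 for Snora75, -0.51 and 1.51 for Snord15b, -0.54 and 1.53 for Snord2, and -0.11 and 0.87 for Snord65. The direction was turned round for Snord23, with 0.31 in BALBc/J and -0.29 in C57BL6/J, and for Snord55, with 1.68 in BALBc/J and -0.56 in C57BL6/J. The median of the snoRNA change minus the host change was -0.10 in BALBc/J and 1.02 in C57BL6/J, a difference that was likewise not tested.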

How the results depend on the processing

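The 2 snoRNA genes called higher after KLA in GRO-Seq became 6 with a pseudocount of 2, 0 with a pseudocount of 50, 0 without a filter, 11 with each library centred on its median and 8 by the adjusted p alone. Leaving out a library, together with the strain or treatment term that 3 libraries cannot carry, gave 0 to 14, the highest without the BALBc/J KLA library. Dropping that term from the fit of all 4 libraries gave 2. The 1 host called lower became 0 with a pseudocount of 50, without a filter or with centring, 2 by the adjusted p alone, and 0 to 1 on leaving out a library in that way. In the strain contrast the 0 snoRNA genes called lower became 3 with centring and 1 by the adjusted p alone. For medians, a left-out library means the value of the other strain or treatment alone. The median strain difference of -0.23 was 0.078 without either KLA library, a reversal, and -0.66 at the other end. The median snoRNA minus host change of 0.47 ran from -0.092, a reversal, without either C57BL6/J library to 1.01. In RNA-Seq the hosts called lower at 1 hr were 0 and became 1 by the adjusted p alone. The 1 host higher at 4 hr became 0 without a filter, and the 3 lower became 1 without a filter, 12 by the adjusted p alone and 3 to 5 on leaving out a library. The 1 host lower in BALBc/J became 0 with a pseudocount of 50 and without a filter, and 0 to 1 on leaving out a library. Host starts with C/EBPa in every list were 14, and 5 with the peaks of each list above its median signal. The median GRO-Seq over RNA-Seq ratio of 1.78 over both untreated strains was 0.88 with a pseudocount of 10, 1.30 over all 105 genes and 2.20 in the KLA libraries. The causes were not tested. The median KLA change of 0.49 kept its direction under all alternatives run, from 0.10 to 0.84 on leaving out a library. For single genes, 119 values kept direction and side of the threshold, 23 no longer passed and 13 newly passed. Deciding membership by whole tags kept 47 genes, and a threshold of 20 kept 29. The whole-tag rule was chosen after seeing the data, as were deposited values in the fit. The alternative with introns in place of exons for the hosts was not run. Depth limits the low genes, with as few as 17 tags. No paired analysis was possible because the only shared replicate numbers are those of p65, whose peak lists enter no test.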
